A study of Mus musculus with 12 samples.

Results

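The genes described here are 10 transcripts that mark lipid-associated macrophages, taken as the rows with the symbols Mmp12, Gpnmb, Trem2, Itgax, Spp1, Atp6v0d2, Lgals3, Cd68, Ctss and Cd9 among 22923 symbols in the deposited expression tables. They were chosen by the high level of Mmp12 in knockout mice fed a high fat diet, to ask whether that pattern reaches other genes of the same cells, so every value of theirs from that group is given as a description and not tested. The tables hold RNA-seq of proximal hind limb skeletal muscle from 22-week-old male FVB mice. Wild type littermates (titled Flox) and knockout (KO) mice that lack both αB-crystallin (Cryab) and HspB2 (Hspb2) in every tissue were given normal chow (titled control) or a high fat diet, with 3 libraries in each of 4 groups. The knockout is constitutive and removes 2 neighbouring genes together, so the groups do not separate the loss of the one from the loss of the other, and these mice are known to develop a muscle disease with age. The genotype field of 6 of the 12 samples contradicts the title, and the titles were followed. Cryab stood at 412 to 837 FPKM (fragments scaled to transcript length and library size) in the 6 libraries titled Flox and at 0.845 to 1.75 FPKM in the 6 titled KO, and Hspb2 at 81.5 to 103 against 0.353 to 1.92 FPKM, so both genes stood with the titles.

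Lipid-associated macrophages are tissue macrophages that take up lipid and cell debris and were described in the adipose tissue of obese animals and people. Their state depends on Trem2, a lipid-sensing receptor that signals through the adaptor Tyrobp, and they express genes of the lysosome, of lipid breakdown and of the extracellular matrix. Similar cells gather in atherosclerotic plaques and in injured or dystrophic muscle. Several of the 10 genes are not particular to these cells: Cd9 is made by muscle, fat and endothelial cells, Spp1 by many cells after injury, and Cd68 and Ctss by macrophages in general. In a whole-muscle library more cells of a type and more RNA per cell cannot be told apart.

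A set of 3 libraries stood apart from the others of their groups. WT chow replicate 2 and KO chow replicates 1 and 3 had summed T cell markers (7 genes) of 32.0 to 36.0 FPKM and summed B cell markers (6 genes) of 48.0 to 55.1 FPKM, against at most 1.74 and 5.71 FPKM in the 9 other libraries, where the T cell gene Cd3e was at or below 0.335 FPKM. Between the KO diets, several of the 10 genes are also described without these 3 libraries, which leaves 1 KO chow library. The counts in the lists of other genes are not given in that setting, although several of them moved. The adipocyte hormone Adipoq ran from 1.40 to 224 FPKM over the 12 libraries, and Acta1, an abundant muscle actin, was listed at 0 in WT chow replicate 1 and KO high fat replicate 2 although the muscle enzyme Ckm was at 25896 and 17661 FPKM there. Across all genes the libraries resembled each other, with Spearman correlations between 0.963 and 0.985.

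Promoter sequences of 9 of the 10 genes were found among RefSeq transcripts on mouse build GRCm38.p6, giving 11 windows from 250 bases before to 30 bases after a transcript start. The 5 windows below are both starts of Mmp12 and the matched genes of the 10 whose levels ran most like it (Gpnmb, Lgals3 and Trem2), shown so that windows with and without the letters searched can be compared. Capitals mark the letters GAGGAA (a PU box, the core bound by the myeloid factor PU.1), TGANTCA (an AP-1 site) and CACGTG (an E-box of the kind bound by the lysosomal regulators Tfeb and Mitf), searched on both strands, so that a PU box on the opposite strand reads TTCCTC. The windows are the upstream start of Mmp12 (chr9:7344147-7344426) and its downstream start (chr9:7347124-7347403), Gpnmb (chr6:49036268-49036547), Lgals3 (chr14:47373610-47373889) and Trem2 (chr17:48346151-48346430), all on the plus strand.
Mmp12 upstream: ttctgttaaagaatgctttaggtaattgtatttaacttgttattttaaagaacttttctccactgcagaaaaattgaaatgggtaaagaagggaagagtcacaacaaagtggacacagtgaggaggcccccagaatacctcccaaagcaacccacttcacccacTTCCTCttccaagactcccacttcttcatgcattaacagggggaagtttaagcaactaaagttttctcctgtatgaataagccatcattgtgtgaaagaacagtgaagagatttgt
Mmp12 downstream: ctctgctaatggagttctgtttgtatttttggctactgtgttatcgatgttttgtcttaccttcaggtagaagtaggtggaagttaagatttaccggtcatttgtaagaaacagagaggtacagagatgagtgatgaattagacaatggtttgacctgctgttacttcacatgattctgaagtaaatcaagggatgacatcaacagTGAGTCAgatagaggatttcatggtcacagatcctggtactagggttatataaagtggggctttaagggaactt
Gpnmb: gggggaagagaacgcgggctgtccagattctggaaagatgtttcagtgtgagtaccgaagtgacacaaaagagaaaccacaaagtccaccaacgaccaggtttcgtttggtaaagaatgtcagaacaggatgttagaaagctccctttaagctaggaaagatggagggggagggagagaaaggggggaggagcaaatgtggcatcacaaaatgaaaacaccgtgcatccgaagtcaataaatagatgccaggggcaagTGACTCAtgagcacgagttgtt
Lgals3: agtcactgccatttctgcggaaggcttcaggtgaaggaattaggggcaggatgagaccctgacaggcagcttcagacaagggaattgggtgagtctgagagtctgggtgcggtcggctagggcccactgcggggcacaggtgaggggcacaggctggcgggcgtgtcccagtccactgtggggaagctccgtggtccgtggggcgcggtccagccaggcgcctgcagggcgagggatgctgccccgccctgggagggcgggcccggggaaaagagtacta
Trem2: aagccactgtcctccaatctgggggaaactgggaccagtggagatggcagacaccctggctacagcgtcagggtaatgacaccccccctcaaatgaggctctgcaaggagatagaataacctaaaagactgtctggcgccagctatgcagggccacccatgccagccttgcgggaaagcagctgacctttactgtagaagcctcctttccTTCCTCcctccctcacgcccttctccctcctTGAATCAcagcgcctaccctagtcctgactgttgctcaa
The AP-1 letters lay at -44 to -38 from the downstream start of Mmp12, at 9 to 15 in Gpnmb and at -9 to -3 in Trem2, and were not in the windows of the upstream Mmp12 start or of Lgals3. Of the windows not shown, Cd68 held them at -149 to -143 and -24 to -18, and Itgax at -56 to -50. In all, 5 of the 11 windows held an AP-1 site and 5 held a PU box, whereas 7.46% and 26% of 32851 RefSeq promoter windows of this length did. An E-box stood in 0 of the 11 windows and in 6.79% of all windows. These are matches of letters and do not show that a factor binds there.

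Mmp12 (chr9:7344381-7369499), the macrophage elastase that cuts elastin and other matrix proteins, was low in most libraries and high in those of KO mice on the high fat diet. It was at 0.189, 0.606 and 0.175 FPKM in WT chow, at 0.195, 1.34 and 4.18 FPKM in WT high fat, at 0.114, 0.0153 and 0.290 FPKM in KO chow, and at 6.44, 9.91 and 6.28 FPKM in KO high fat, each in the order of replicates 1 to 3. All 3 KO high fat libraries lay above all 9 others, and the lowest of them was 1.5 times the highest of the rest, WT high fat replicate 3. The group means were 0.323 ± 0.245, 1.91 ± 2.05, 0.140 ± 0.139 and 7.54 ± 2.05 FPKM (SD, n = 3 each), so the KO mean was 54.0 times as high on the high fat diet as on chow and 3.96 times the WT mean on the same diet. The wild type libraries on this diet spread widely, from the chow level to near that of the KO mice.

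**Figure D1:**
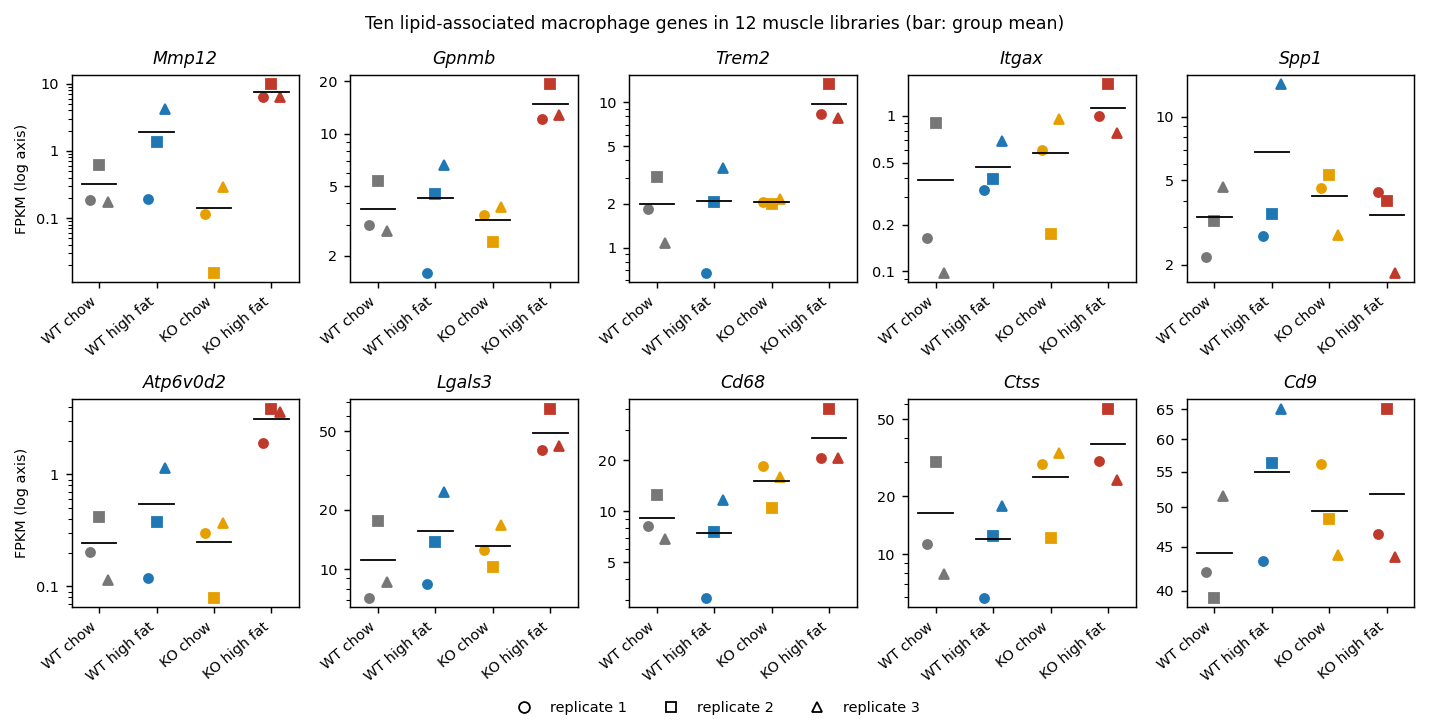
FPKM (log axis) of the 10 genes in each of the 12 libraries, by group, with symbols for the replicate and a bar at the group mean. Mmp12, Gpnmb, Trem2, Atp6v0d2, Lgals3 and Cd68 have all 3 KO high fat libraries above all 9 others, while Spp1 and Cd9 do not separate them.

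The surface proteins Gpnmb and Trem2 had the same shape as Mmp12 from a higher floor. Gpnmb (chr6:49036546-49070929), a glycoprotein of lysosomes and the cell surface in lipid-laden phagocytes, was at 3.003, 5.34 and 2.78 FPKM in WT chow, 1.598, 4.54 and 6.66 FPKM in WT high fat, 3.43, 2.39 and 3.82 FPKM in KO chow, and 12.2, 19.3 and 12.9 FPKM in KO high fat. Trem2 (chr17:48346401-48354147) was at 1.85, 3.05 and 1.08 FPKM, then 0.673, 2.05 and 3.53 FPKM, then 2.06, 2.01 and 2.17 FPKM, and 8.26, 13.3 and 7.75 FPKM in the same 4 groups. For both genes the KO high fat libraries lay above every other, by at least 1.83 times for Gpnmb and 2.20 times for Trem2, the widest gap of the 10 genes. The KO mean on the high fat diet was 4.61 times the KO chow mean for Gpnmb and 4.71 times for Trem2, and it was 3.47 and 4.70 times the WT high fat mean. Unlike Mmp12, neither gene had a WT high fat mean far from its WT chow mean, at 4.27 ± 2.54 against 3.71 ± 1.42 FPKM for Gpnmb and 2.08 ± 1.43 against 1.99 ± 0.991 FPKM for Trem2 (SD, n = 3).

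Atp6v0d2 (chr4:19876841-19922605), a subunit of the proton pump that acidifies lysosomes and is known from macrophages and osteoclasts, had the second largest ratio between the KO diets, 12.5 times. It was at 0.205, 0.414 and 0.114 FPKM in WT chow, 0.118, 0.379 and 1.15 FPKM in WT high fat, 0.303, 0.0797 and 0.370 FPKM in KO chow, and 1.92, 3.87 and 3.59 FPKM in KO high fat. The lowest KO high fat library was 1.68 times the highest other. Lgals3 (chr14:47367751-47386160) encodes galectin-3, a sugar-binding protein that macrophages release and that gathers on damaged lysosomes. It was at 7.21, 17.5 and 8.64 FPKM in WT chow, 8.47, 13.8 and 24.8 FPKM in WT high fat, 12.5, 10.3 and 16.7 FPKM in KO chow, and 40.02, 65.0 and 42.2 FPKM in KO high fat, 1.62 times or more above the rest. Its KO high fat mean, 49.1 ± 13.8 FPKM, was 3.72 times the KO chow mean of 13.2 ± 3.24 FPKM and 3.13 times the WT high fat mean of 15.7 ± 8.30 FPKM (SD, n = 3).

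The general macrophage genes separated the KO high fat group less. Cd68 (chr11:69664213-69666153), a glycoprotein of macrophage lysosomes, was at 8.18, 12.4 and 6.84 FPKM in WT chow, 3.11, 7.54 and 11.6 FPKM in WT high fat, 18.5, 10.4 and 16.0 FPKM in KO chow, and 20.5, 40.1 and 20.7 FPKM in KO high fat. The lowest KO high fat value was 1.11 times the highest KO chow value, so the gap was narrow, and the ratio of means between the KO diets was 1.81. Ctss (chr3:95526786-95556403), the lysosomal protease cathepsin S of antigen-presenting cells, was at 11.3, 29.99 and 7.89 FPKM in WT chow, 5.98, 12.4 and 17.7 FPKM in WT high fat, 29.4, 12.2 and 33.5 FPKM in KO chow, and 30.5, 56.6 and 24.2 FPKM in KO high fat. The KO groups overlapped in Ctss, with a ratio of means of 1.48, whereas the KO and WT high fat groups did not, with a ratio of 3.08. Its high values in chow libraries fell in the 3 that also carried T and B cell markers. The part of those cells in the Ctss level was not tested.

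Itgax (chr7:128129547-128150657), the CD11c integrin chain of dendritic cells and of macrophages in obese fat, was near the limit of measurement and fell to the low-value filter, so it entered no test. It was at 0.164, 0.893 and 0.0981 FPKM in WT chow, 0.332, 0.394 and 0.689 FPKM in WT high fat, 0.607, 0.173 and 0.953 FPKM in KO chow, and 1.002, 1.601 and 0.776 FPKM in KO high fat. On the high fat diet the KO libraries lay above the WT ones, while between the KO diets the groups overlapped, and the chow libraries that reached 0.607 to 0.953 FPKM were again those with T and B cell markers. Spp1 (chr5:104435118-104441050), the secreted matrix protein osteopontin, was at 2.18, 3.21 and 4.65 FPKM in WT chow, 2.74, 3.49 and 14.3 FPKM in WT high fat, 4.61, 5.32 and 2.76 FPKM in KO chow, and 4.41, 4.01 and 1.83 FPKM in KO high fat. Its highest value was thus in a WT mouse, and the KO high fat mean was 0.808 times the KO chow mean. Cd9 (chr6:125460266-125494791), a tetraspanin of many cell types, was at 42.0, 39.3 and 51.5 FPKM, 43.3, 56.3 and 65.1 FPKM, 56.1, 48.4 and 44.0 FPKM, and 46.5, 65.1 and 43.8 FPKM in the same order of groups. All 4 Cd9 groups overlapped, with group means between 44.3 and 54.9 FPKM.

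Diet alone, in wild type mice, and genotype alone, on normal chow, were the comparisons that leave out the KO high fat libraries. The 10 genes were chosen with earlier results of these data known, so neither comparison is fully independent of the choice. The fit took 9 of the 10 genes, those at 1 FPKM or more in at least 3 libraries, but Mmp12 and Atp6v0d2 met this filter only through the KO high fat libraries, by which the genes were chosen, so their differences are given as a description. Of the 7 that met it without those libraries, 0 reached an adjusted p under 0.05 in either comparison, with limma on log2(FPKM + 1) and Benjamini-Hochberg adjustment over 11945 genes, and 0 had an unadjusted p under 0.05. Over all genes tested, the adjusted threshold was passed by 12 genes (0.1%) for diet in WT and by 7 (0.0586%) for genotype on chow, and the unadjusted one by 8.12% and 16.7%. The groups overlapped for all 10 genes in both comparisons, while 6.2% of the genes tested were higher and 6.88% lower without overlap for diet in WT, and 8.15% and 10.2% for genotype on chow.

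For diet in WT mice Mmp12, given as a description, differed by 0.90 on the log2(FPKM + 1) scale (SE 0.41), and by 0.35 to 1.41 with 1 library left out. This scale understates ratios of low genes, and the ratio of the group means in FPKM was 5.89, which was 2.37 without WT high fat replicate 3 and 10.5 without WT chow replicate 2. The other intervals were wide: they ran from -0.71 to 0.84 for Gpnmb, from -0.76 to 0.72 for Trem2, from -0.40 to 1.27 for Lgals3, from -0.29 to 0.82 for Atp6v0d2 and from -0.45 to 1.63 for Spp1, so a log2 difference of 1 lay inside those of Lgals3 and Spp1. For Cd68 and Ctss the differences were negative, -0.37 and -0.32 (limma adjusted p = 0.871 and 0.914). For Cd9 it was 0.29 (interval -0.11 to 0.70, limma adjusted p = 0.741).

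Genotype on normal chow gave log2(FPKM + 1) differences of -0.14 for Gpnmb (95% interval -0.91 to 0.64) and 0.09 for Trem2 (-0.65 to 0.84). Those of Mmp12 and Atp6v0d2, given as a description, were -0.21 (SE 0.41) and 0.01 (SE 0.25). The values nearest to a change were those of the general macrophage genes Cd68 and Ctss, at 0.66 (SE 0.40) and 0.68 (SE 0.54), with limma adjusted p-values of 0.385 and 0.48. Lgals3, Spp1 and Cd9 differed by 0.30, 0.27 and 0.16 (limma adjusted p = 0.66, 0.754 and 0.62). Without the 3 libraries with T and B cell markers, which leaves 1 KO chow library, the differences of Cd68 and Ctss were 0.43 and 0.34.

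With the high fat diet the genes came apart into those that shared the pattern of Mmp12 and those that did not. Between the KO diets 6 of the 10 genes (Mmp12, Gpnmb, Trem2, Atp6v0d2, Lgals3 and Cd68) were higher without overlap, against 10.7% of all genes tested, and the same 6 had all 3 KO high fat libraries above the 9 others, against 1.77% (212 genes). Without the libraries with T and B cell markers, which leaves 1 KO chow library, Itgax and Ctss were also higher in KO high fat, 8 of 10, against 27.4%. Between genotypes on the high fat diet Itgax and Ctss joined them, making 8 of 10, against 13% of all genes tested. Since the genes were chosen with this contrast known, these counts describe them and are no test. On the log2(FPKM + 1) scale the diet difference in KO mice was 2.89 for Mmp12, 1.90 for Gpnmb, 1.81 for Lgals3, 1.77 for Trem2 and 1.69 for Atp6v0d2, then 0.78 for Cd68, 0.57 for Ctss, 0.05 for Cd9 and -0.27 for Spp1. The median of the 9 was 1.69, beside 0.03 over all genes tested. The genotype difference on the high fat diet was 1.88 for Trem2, 1.81 for Cd68, 1.78 for Mmp12, 1.69 for Gpnmb, 1.67 for Lgals3, 1.57 for Ctss and 1.43 for Atp6v0d2, with Cd9 and Spp1 at -0.08 and -0.58. These comparisons share the KO high fat libraries. The diet difference in KO exceeded that in WT by 1.99 for Mmp12, 1.83 for Gpnmb, 1.79 for Trem2, 1.43 for Atp6v0d2 and 1.38 for Lgals3, and by 1.15 for Cd68 and 0.89 for Ctss, while Spp1 and Cd9 went the other way at -0.85 and -0.25.

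The libraries with T and B cell markers weighed on Cd68 and Ctss more than on the others. Without those 3 libraries the diet difference in KO mice, now against 1 chow library, was 1.23 for Cd68 and 1.44 for Ctss, while for Mmp12, Gpnmb, Trem2, Atp6v0d2 and Lgals3 it was 3.05, 2.20, 1.81, 1.90 and 2.11. This setting was chosen after the values were seen.

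**Figure D2:**
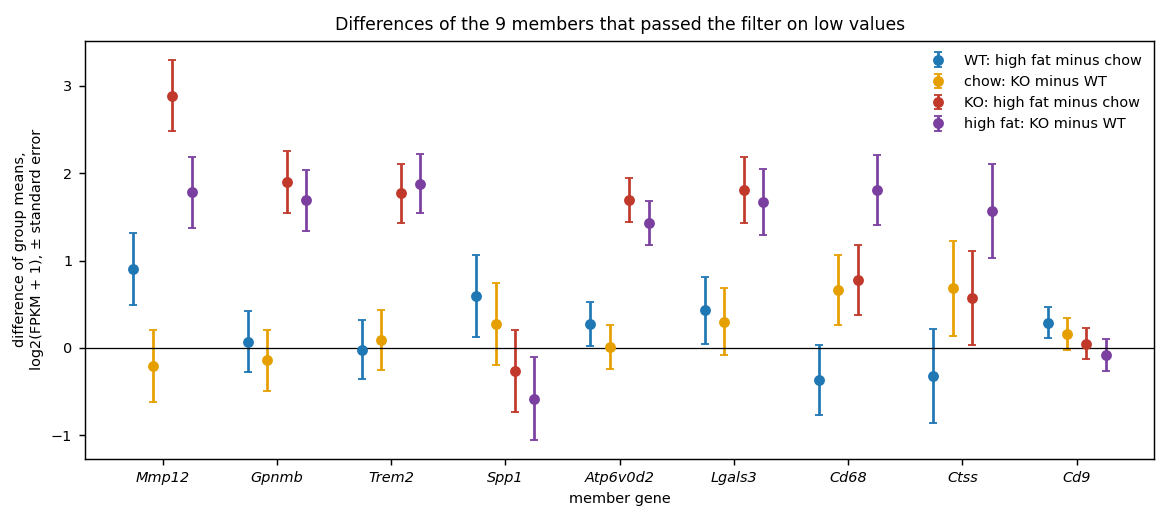
Log2(FPKM + 1) differences of the 9 genes that passed the low-value filter, by gene, with colours for 4 comparisons and bars of 1 standard error of the limma fit either way. The differences for diet in KO and for genotype on the high fat diet stand above those for diet in WT and genotype on chow for Mmp12, Gpnmb, Trem2, Atp6v0d2 and Lgals3, and not for Spp1 and Cd9.

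Within groups the 10 genes tended to be high or low in the same mice. In WT chow, replicate 2, which carries T and B cell markers, was the highest for 8 of the 10. In KO chow, replicate 2, the only library there without these markers, was the lowest for 8. The part of those cells in this order was not tested. In WT high fat, replicate 1 was the lowest and replicate 3 the highest for all 10 genes, which was also the order of Adipoq, at 1.40, 28.9 and 94.8 FPKM. In KO high fat, replicate 2 was the highest for 9 of the 10 (Spp1 was the exception) although its Adipoq, 91.7 FPKM, was the lowest of the group, where the others had 112 and 125 FPKM. Adipoq was at 224, 106 and 195 FPKM in KO chow, 2 of these the highest values of all, and Mmp12 was at or below 0.290 FPKM there. Over the adipocyte list of 7 genes, all of them at 1 FPKM or more in every library but WT high fat replicate 1, the summed level was 160 to 842 FPKM in WT chow, 47.2 to 490 FPKM in WT high fat, 944 to 1934 FPKM in KO chow and 447 to 629 FPKM in KO high fat. Genotype on the high fat diet gave a difference of 2.53 in Adipoq (log2, SE 1.07, limma adjusted p = 0.277). The part of fat between the muscle fibres in the levels of the 10 genes was not tested. A neutrophil list of 7 genes summed to 1146 FPKM in WT high fat replicate 1, the library of its group lowest in the 10 genes, and to 443 and 123 FPKM in replicates 3 and 2. It was at most 42.0 FPKM in KO high fat.

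**Figure D3:**
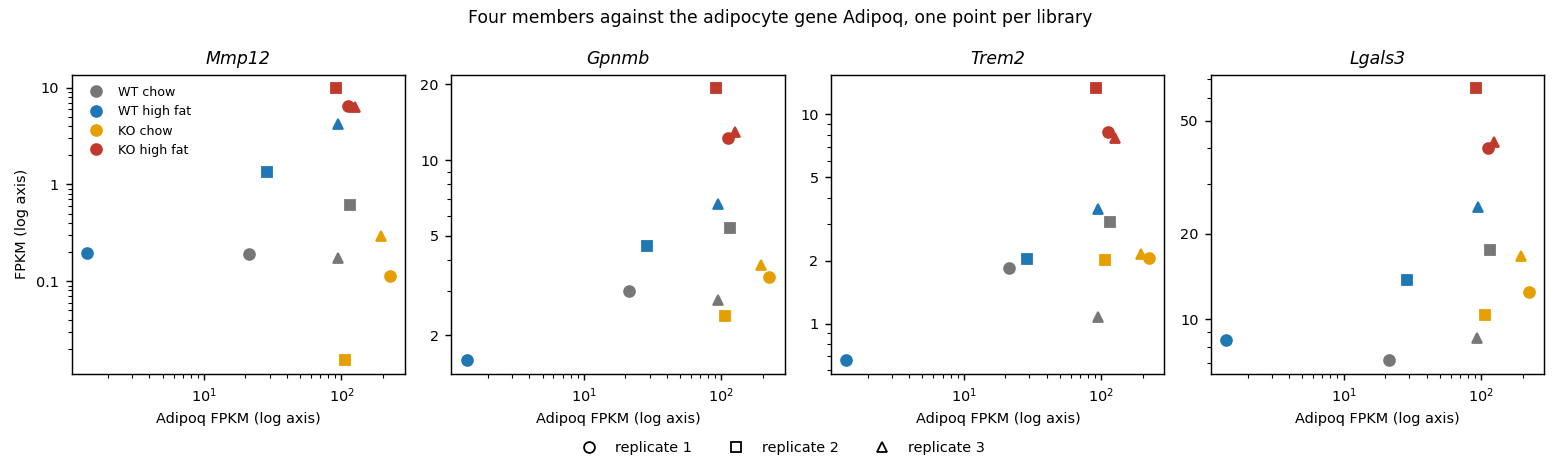
FPKM of Mmp12, Gpnmb, Trem2 and Lgals3 against Adipoq FPKM in the same library (both axes log), with colours for the groups and symbols for the replicates. The KO high fat libraries lie above the KO chow libraries for Mmp12 at lower or similar Adipoq, and the 3 WT high fat libraries climb from left to right.

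The macrophage antigen F4/80, listed under its older symbol Emr1, was itself higher in the KO high fat libraries. It was at 2.33, 3.37 and 2.53 FPKM in WT chow, 0.942, 2.38 and 2.37 FPKM in WT high fat, 4.49, 3.32 and 3.96 FPKM in KO chow, and 5.52, 8.35 and 5.37 FPKM in KO high fat. By limma it differed by 0.57 between the KO diets (log2, SE 0.22, unadjusted p = 0.026, adjusted p = 0.431) and by 1.38 between genotypes on the high fat diet (SE 0.22, adjusted p = 0.0529), so it stayed short of the adjusted threshold in both. Without the libraries with T and B cell markers these differences were 0.76 and 1.38. Csf1r, the receptor for the macrophage growth factor CSF1, differed by -0.05 between the KO diets and by 1.33 between genotypes on the high fat diet (limma adjusted p = 0.949 and 0.0866), and by 0.15 and 1.33 without those libraries. The macrophage markers Cd163 and Mrc1 differed by -0.46 and -0.22 between the KO diets (limma adjusted p = 0.494 and 0.743). Between genotypes on the high fat diet they differed by 0.93 and 1.24 (limma adjusted p = 0.117 and 0.0929). Summed over 11 macrophage markers the level was 99.8 to 219 FPKM in WT chow, 112 to 143 FPKM in WT high fat, 159 to 302 FPKM in KO chow and 154 to 313 FPKM in KO high fat, and the KO diets overlapped. Lyz2, lysozyme, made up most of this sum, at 167 and 231 FPKM in KO chow replicates 1 and 3, which carry T and B cell markers. It was at 108 FPKM in the remaining KO chow library, whose sum was 159 FPKM. Among the single markers Emr1 was higher without overlap between the KO diets, while Cd163 and Mertk were lower without overlap. Cd163 was at 7.63, 6.64 and 6.21 FPKM in KO chow and 5.05, 5.64 and 3.55 FPKM in KO high fat. Mertk was at 2.35, 1.70 and 2.13 FPKM in KO chow and 1.63, 1.41 and 1.52 FPKM in KO high fat.

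Ratios to Emr1, chosen after the values were seen, place the 10 genes on the scale of this macrophage gene, which Cd163, Mrc1 and Mertk did not follow between the KO diets. Mmp12 per Emr1 was 0.0691 to 0.180 in WT chow, 0.207 to 1.76 in WT high fat, 0.00461 to 0.0730 in KO chow and 1.17 to 1.19 in KO high fat, where the 3 mice were nearly equal. Per Emr1, 5 genes (Mmp12, Gpnmb, Trem2, Atp6v0d2 and Lgals3) were higher without overlap in KO high fat than in KO chow, against 0.234% of all genes tested, and Cd9 was lower. Cd68 and Ctss overlapped on this scale. Between the WT diets 5 genes (Mmp12, Gpnmb, Atp6v0d2, Lgals3 and Cd9) were also higher without overlap per Emr1, but so were 16.4% of all genes tested, and Emr1 was at 0.942 FPKM in WT high fat replicate 1. Between genotypes on the high fat diet 0 of the 10 genes were higher per Emr1, as were only 0.117% of all genes tested, and Spp1 and Cd9 were lower. Gpnmb per Emr1, for example, was 1.70 to 2.81 in WT high fat and 2.21 to 2.40 in KO high fat, beside 1.10 to 1.59 in WT chow and 0.719 to 0.964 in KO chow. With Csf1r as the denominator, 7 genes separated the KO diets (the 5 above with Itgax and Cd68, against 1.73% of all genes tested), and Trem2 alone was higher in KO than in WT on the high fat diet (0.251%).

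**Figure D4:**
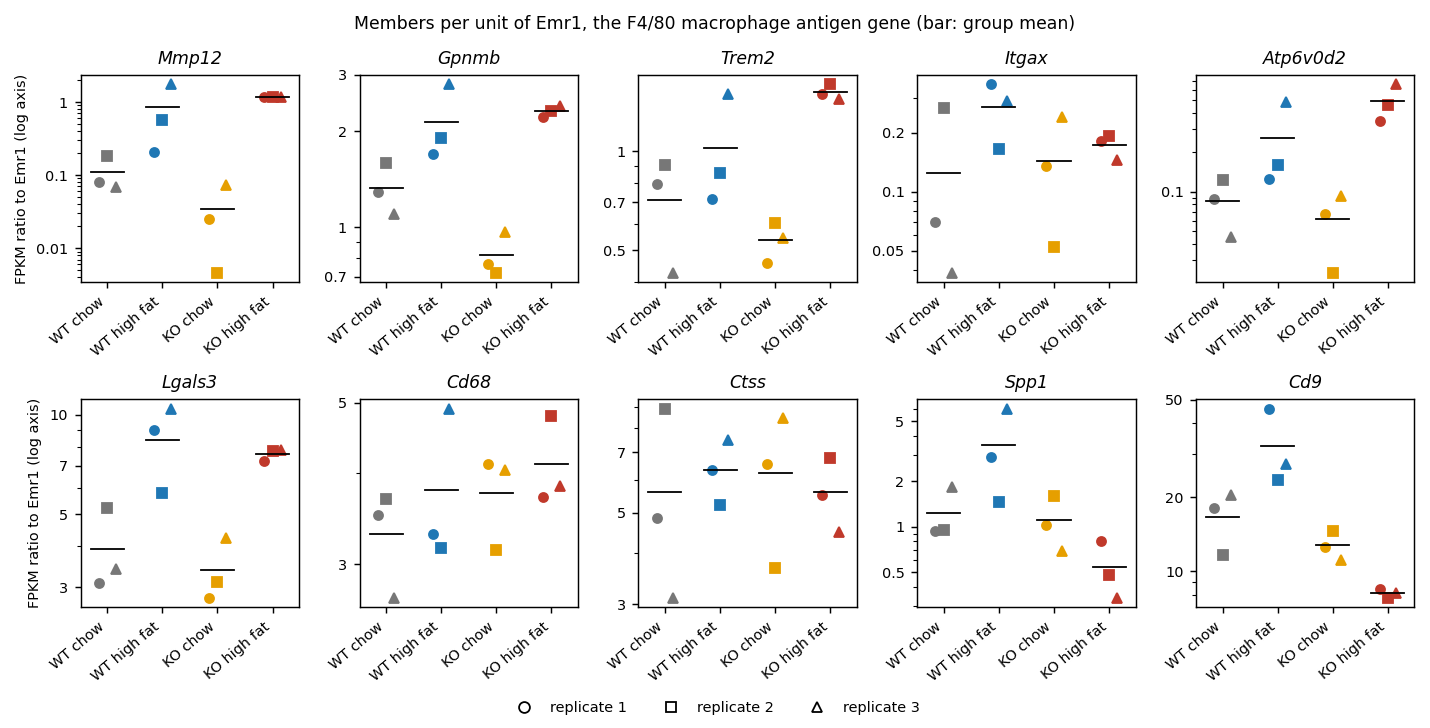
Ratio of each gene's FPKM to that of Emr1 in the same library (log axis), by group, with a bar at the group mean. Mmp12 per Emr1 is 1.17 to 1.19 in the 3 KO high fat mice and 0.207 to 1.76 in the WT high fat mice, while Cd68 and Ctss per Emr1 overlap between the KO diets.

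Other genes of these pathways were read from lists that do not hold the 10 genes, and none of them passed the adjusted threshold in any comparison, which 0 of 11945 genes (0%) did for diet in KO, where 1349 (11.3%) had an unadjusted p under 0.05, and 13 (0.109%) did for genotype on the high fat diet, where 1940 (16.2%) did so unadjusted. At an unadjusted limma p under 0.05, 6.56% of all genes were higher and 4.73% lower between the KO diets, and 9.79% were higher and 6.45% lower between genotypes on the high fat diet. Of 24 further genes of lipid-associated macrophages, 4 were higher (Lipa, Plin2, Anxa2 and Il1rn) and 1 lower (Cst7) between the KO diets at that level, with a median difference of 0.04. Between genotypes on the high fat diet 11 were higher, Tyrobp, Apoe, Abca1 and Abcg1 among them, and 1 was lower (Nceh1), with a median of 0.54. Without KO high fat replicate 2 the 11 became 7.

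Lysosomal genes gave the larger share. Of 28 tested, 7 were higher between the KO diets at an unadjusted p under 0.05 (Ctsb, Ctsk, Ctsl, Lipa, Psap, Cstb and Cst3) and 0 lower, and 22 of the 28 differences were positive, with a median of 0.17. Between genotypes on the high fat diet 20 were higher and 0 lower, and the median was 0.46. Leaving out KO high fat replicate 2, in which 9 of the 10 macrophage genes were highest, lowered these counts to 3 and 13. Lipa, the acid lipase that frees cholesterol and fatty acids in lysosomes and a member of both lists, was at 11.2, 8.47 and 11.5 FPKM in KO chow and 16.1, 22.7 and 17.7 FPKM in KO high fat, a difference of 0.80 (log2, SE 0.23, limma adjusted p = 0.379). Against WT high fat (5.73, 8.30 and 11.2 FPKM) its difference was 1.10 (limma adjusted p = 0.0688). The protease cathepsin L (Ctsl) and the protease inhibitor cystatin B (Cstb) differed by 0.69 and 0.89 between the KO diets (limma adjusted p = 0.233 and 0.273). Anxa2, a membrane-binding annexin, and Plin2, the coat protein of lipid droplets in many cells, differed by 0.86 and 0.58 (limma adjusted p = 0.42 and 0.435).

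Atp6v0d2 stood apart from the other subunits of its pump in size. Of 19 V-ATPase genes tested, 4 were higher between the KO diets at an unadjusted p under 0.05 and all 19 differences were positive, but small, with a median of 0.17. Atp6v0a1 went from 28.8 to 39.7 FPKM (difference 0.45, limma adjusted p = 0.3), Atp6v0e2 differed by 0.37 and Atp6v1c1 by 0.20 (limma adjusted p = 0.395 and 0.408). Between genotypes on the high fat diet the list had 4 higher and 0 lower, with a median of 0.08. The 4 became 2 with quantile normalization between the KO diets, and 2 without KO high fat replicate 2 between genotypes.

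Other matrix proteases went in both directions. Of 14 genes of metalloproteinases, their inhibitors and elastin, 2 were higher (Mmp3 and Mmp11) and 1 lower (Mmp9) between the KO diets at an unadjusted p under 0.05. Mmp3, stromelysin, which fibroblasts make, was at 3.99, 2.08 and 2.85 FPKM in KO chow and 4.21, 12.3 and 5.65 FPKM in KO high fat (difference 0.99, limma adjusted p = 0.441). Mmp9, the gelatinase that neutrophils store, was at 3.95, 2.24 and 2.33 FPKM and then at 1.07, 1.11 and 0.873 FPKM (difference -0.90, limma adjusted p = 0.431), and it was highest, at 5.15 FPKM, in WT high fat replicate 1, the library with the most neutrophil markers. On the high fat diet 6 of the 14 were higher in KO than in WT (Mmp3, Mmp11, Mmp14, Mmp19, Mmp23 and Timp2) and 1 lower (Mmp9), with a median of 0.29. Mmp3 differed by 2.01 there (limma adjusted p = 0.0826), beside 1.78 for Mmp12. The count of 2 between the KO diets became 0 without KO chow replicate 3 or without KO high fat replicate 2.

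Genes of the signalling arm below Trem2 differed in direction between the comparisons. Of 11 tested, 0 were higher and 1 (Hcst) lower between the KO diets at an unadjusted p under 0.05, and the median was -0.32. Hcst, an adaptor like Tyrobp that lymphocytes also use, was at 4.21, 1.48 and 4.52 FPKM in KO chow and 1.30, 1.09 and 0.220 FPKM in KO high fat (limma adjusted p = 0.441). Plcg2, a phospholipase, and Inpp5d, the phosphatase SHIP1, both differed by -0.64 (limma adjusted p = 0.445 and 0.446). Each of the 3 was highest in the libraries with T and B cell markers. The part of those cells in these levels was not tested. Without those libraries, the count of genes higher between the KO diets was no longer 0, but it then rested on 1 KO chow library. Tyrobp itself was at 39.4, 20.2 and 30.5 FPKM in KO chow and 33.2, 55.1 and 32.5 FPKM in KO high fat (difference 0.42, limma adjusted p = 0.554). On the high fat diet 2 of the 11 were higher in KO than in WT (Tyrobp and Plxna1) and 1 lower (Sema6d) at an unadjusted p under 0.05. There 7 were higher without overlap, against 13% of all genes tested, and the median was 0.32. The 2 at the unadjusted threshold became 0 without KO high fat replicate 2 and 6 in a fit of only the 2 groups.

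Genes of osteoclasts and multinucleate macrophages, and the integrins and tetraspanins that partner Itgax and Cd9, had few members past the unadjusted threshold. Of 7 of the former, 1 was higher between the KO diets at an unadjusted p under 0.05, the collagen-cutting protease Ctsk, at 16.9, 11.05 and 12.7 FPKM in KO chow and 19.1, 50.8 and 18.97 FPKM in KO high fat (difference 0.94, limma adjusted p = 0.431). Its high mean came from replicate 2, and the count was 0 without that library or without KO chow replicate 3. Mitf and Tfeb, transcription factors of lysosomal genes, differed by 0.13 and 0.19 (limma adjusted p = 0.569 and 0.578). On the high fat diet 2 of the 7 were higher in KO than in WT (Acp5 and Ctsk) and 0 lower, with a median of -0.01. Without overlap 3 of the 7 were higher there, against 13% of all genes tested. Those 2 became 0 without KO high fat replicate 2 or without WT high fat replicate 1. Of 15 integrin and tetraspanin genes, 1 was higher between the KO diets (Itgb5, difference 0.35, limma adjusted p = 0.379). In the same comparison 2 were lower (Cd82 and Itgal, differences -0.75 and -1.26, limma adjusted p = 0.353 and 0.44). Genotype on the high fat diet gave 2 of the 15 higher (Itgav and Cd81) and 0 lower. Without overlap, 5 were higher there, against 13% of all genes tested. The 2 at the unadjusted threshold became 1 without KO high fat replicate 2 and 6 in a fit of only the 2 groups. Itgal, the lymphocyte integrin chain LFA-1, was at 4.22 and 4.73 FPKM in the KO chow libraries with T and B cell markers and at 0.310 FPKM in the other.

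**Figure D5:**
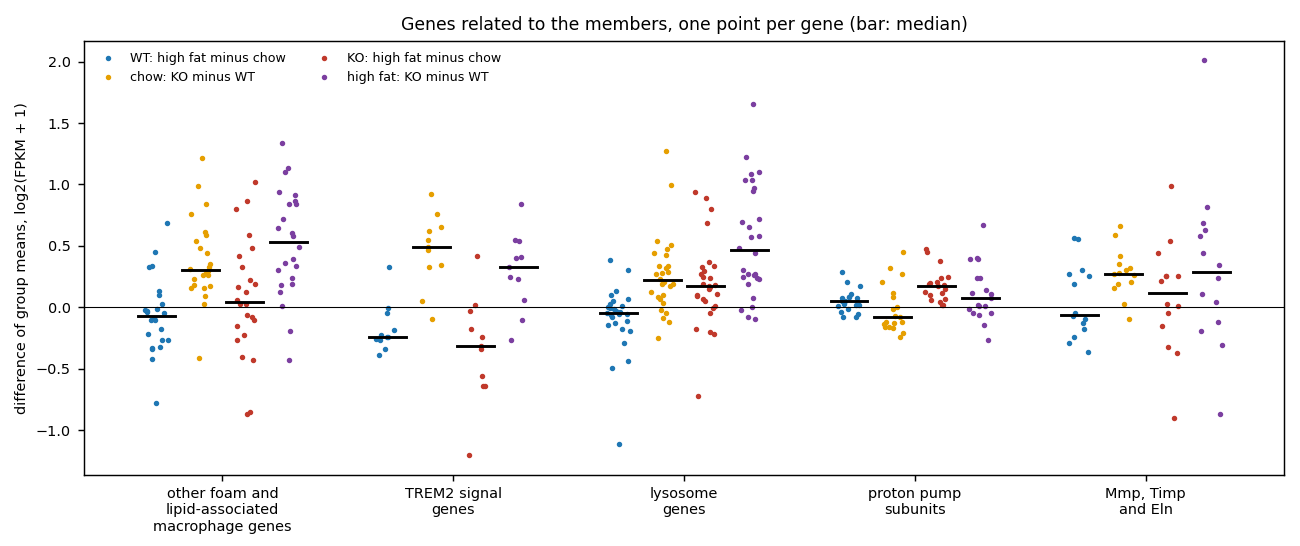
Log2(FPKM + 1) differences of the single genes of 5 related lists, coloured by comparison, with a bar at the median of each list. The lysosome list has a median of 0.17 for diet in KO and 0.46 for genotype on the high fat diet, and the list below Trem2 a median of -0.32 for diet in KO and 0.32 for genotype on the high fat diet.

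The genes whose levels ran most like those of Mmp12 over the 12 libraries included members of the same group. By Pearson's r on log2(FPKM + 1), the 5 nearest of 11944 genes were Ubd, a ubiquitin-like protein induced by inflammation (0.977), Tph2, an enzyme of serotonin synthesis (0.966), Saa3, an acute phase protein (0.955), Atp6v0d2 (0.955) and Gpnmb (0.949). Spearman's rho was 0.839, 0.783, 0.764, 0.937 and 0.895 for these. Lgals3 was 7th and Trem2 11th in this order, with r of 0.940 and 0.913, whereas Cd68, Ctss, Cd9 and Spp1 were at places 256, 563, 1369 and 3605. Ubd was at 0.241 ± 0.173, 3.46 ± 3.85, 0.471 ± 0.396 and 12.8 ± 3.79 FPKM in WT chow, WT high fat, KO chow and KO high fat (SD, n = 3), and Saa3 at 0.139 ± 0.0587, 0.889 ± 0.846, 0.114 ± 0.130 and 5.37 ± 2.58 FPKM. The 12 libraries fall into groups that differ in Mmp12, so these coefficients are a description and carry no test. The mean standardized profile of the 9 tested genes was matched best by Ckb, the brain form of creatine kinase, Cd300lb, a myeloid receptor, and Lipa, with r of 0.968, 0.963 and 0.944 (rho 0.923, 0.916 and 0.902).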

How the data were processed

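RNA from 12 muscle samples was sequenced by the authors, and the deposited values are FPKM per gene, read as such from the values. The submitters' processing notes name TopHat2 2.0.8b, Cuffdiff 2.1.1 and build mm10, without their roles. FPKM keeps no read count, so the depth behind each value is unknown. Values were analysed as log2(FPKM + 1) for genes at 1 FPKM or more in at least 3 libraries with limma 3.58.1 in R 4.3.3 (trended variance, 4 group means, 8 residual degrees of freedom, Benjamini-Hochberg adjustment, threshold 0.05), after a check on simulated data. The analysis used Python 3.11.15. Groups came from the sample titles. Samples are labelled as separate libraries, with no statement that each is a separate mouse beyond the study's design. The p-values therefore set each group difference against the spread between these libraries within groups. The 10 genes and all lists were chosen with earlier results of these data known. Genes named outside the 10 are the 5 most like Mmp12, the 3 most like the mean profile, and from each list up to 3 genes with a mean of at least 1 FPKM and the smallest unadjusted p for diet in KO. Emr1, Csf1r, Cd163, Mrc1, Mertk, Adipoq, Tyrobp and others named by a test count were taken for context after their values were seen. Positions are from GENCODE on GRCm38 and promoters from RefSeq. Another pseudocount, filter, scaling, set of samples, a replicate block and omission of libraries were tried.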

Additional observations from a re-analysis of the deposited data

How the results depend on the processing

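The 7 genes that met the filter without the KO high fat libraries stayed short of the adjusted threshold for diet in WT and genotype on chow under all 266 alternatives of those values, the lowest limma adjusted p being 0.176 (Ctss on chow, without WT chow replicate 2), and 17 changed sign. With quantile normalization Trem2 was 0.04 for diet in WT and -0.03 for genotype on chow, and Atp6v0d2, which is not among these 7, was -0.22 on chow. Without the 3 libraries with T and B cell markers Trem2 and Ctss were 0.23 and 0.21 for diet in WT, and Atp6v0d2 was -0.10 on chow. Leaving out 1 library at a time gave ranges for diet in WT of 0.35 to 1.41 for Mmp12, -0.27 to 0.51 for Gpnmb, -0.35 to 0.36 for Trem2, -0.05 to 0.97 for Spp1, -0.74 to 0.07 for Cd68 and -0.69 to 0.21 for Ctss, and for genotype on chow of -0.27 to 0.10 for Gpnmb, -0.14 to 0.34 for Trem2 and -0.07 to 0.11 for Atp6v0d2. For diet in KO the same omissions gave 2.70 to 2.99 for Mmp12, 1.59 to 1.98 for Lgals3, 0.47 to 0.94 for Cd68 and 0.14 to 0.84 for Ctss. With a pseudocount of 0.1 Mmp12 and Atp6v0d2 differed by 5.14 and 3.26 there. The numbers of genes called over the whole table moved more. For diet in WT (12) there were 3 in a fit of only the 2 groups, 1 without the 3 libraries with T and B cell markers, and 1 (without WT chow replicate 1 or 2) to 32 (without WT high fat replicate 2) with 1 library left out. For genotype on chow (7) there were 4 in the fit of 2 groups and 4 to 14, the most without WT chow replicate 3. For diet in KO (0) there were 6 with no filter, 7 in the fit of 2 groups, 9 with quantile normalization, and 0 to 10, the most without WT high fat replicate 1. For genotype on the high fat diet (13) there were 24 with no filter, 8 in the fit of 2 groups, 26 with quantile normalization, and 4 (without KO high fat replicate 2) to 82 (without WT high fat replicate 3). For the interaction (0, with 746 genes, 6.25%, at an unadjusted p under 0.05) there was 1 with no filter and 0 to 1 with 1 library left out. The further macrophage genes higher at an unadjusted p under 0.05 were 3 to 5 for diet in KO with 1 library left out, and 7 to 15 for genotype on the high fat diet. The lysosomal genes were 4 with quantile normalization and 3 to 8 for diet in KO, and 13 to 21 for genotype on the high fat diet. The share of genes at an unadjusted p under 0.05 that were higher went from 58.1% to 45.6% with median-of-ratios size factors for diet in KO, and from 60.3% to 48.6% with quantile normalization for genotype on the high fat diet. The cause of these shifts was not tested.

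Replicate numbers do not pair the libraries: same-numbered libraries deviated from their group means with correlations of -0.806 to 0.387, and 3 of 6 libraries correlated best with their own number for diet in WT and 0 of 6 in the other comparisons. A replicate block in the fit gave 7 called genes for diet in WT, 4 for genotype on chow, 0 for diet in KO, 5 for genotype on the high fat diet and 0 for the interaction. FPKM without counts leaves the precision of low values such as those of Itgax, Mmp12 and Atp6v0d2 unknown.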
